A study of Mus musculus with 65 samples.

Results

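The sites described here are the CTCF peaks at the 4 large antigen receptor loci of the mouse: Igh (immunoglobulin heavy chain, chromosome 12), Igk (immunoglobulin kappa light chain, chromosome 6), Tcrb (T cell receptor beta, chromosome 6) and Tcra (T cell receptor alpha, with the delta chain genes nested inside it, chromosome 14). Overlapping peaks (by 1 bp or more) of all 23 CTCF ChIP-seq lists that the authors assessed as Pass were joined, and every merged interval that overlapped 1 of the 4 loci was kept. The windows are 2.9 Mb at Igh, 3.25 Mb at Igk, 0.75 Mb at Tcrb and 1.9 Mb at Tcra, and reach somewhat past the outermost segments on either side. Within them the V segments span chr12:113572927-116010093, chr6:67555497-70704177, chr6:40891229-41281990 and chr14:52427928-54075515 in the same order. This gave 241 sites of 49473 in the genome, with 67 at Igh, 48 at Igk, 20 at Tcrb and 106 at Tcra. The choice used position only, and no site was chosen by its strength or by the cells in which it was called. Sites are numbered along each locus from the low coordinate. Igh-1 thus lies past the Igh constant genes, Igk-48 between the Igk V and J segments and Tcra-106 past the Tcra constant gene. Coordinates are those of GRCm38, which is mm10.

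The study varied cell number and sonication for CTCF and TAL1 ChIP-seq and then applied the conditions to rare blood cells. The 9 Pass lists of primary cells came from sorted bone marrow cells of young male C57BL/6 mice, all negative for CD4, CD8, IL7Ra, CD11b, Ly6g and CD45R. They were LSK (cKit+, Sca1+, n = 2), MEP (megakaryocyte and erythrocyte progenitors, cKit+, Sca1-, CD34-, CD16/32-, n = 1), CFUE (Ter119+, CD44+, large, n = 1), ERY (Ter119+, CD44+, small, n = 2), CFUMk (CD41+, CD61+, cKit+, n = 1) and iMk (CD41+, CD61+, cKit-, n = 2). LSK is the fraction that holds the blood stem cells, CFUE and ERY are red cell precursors, and CFUMk and iMk are of the megakaryocyte lineage. The gates thus left out cells with B or T cell surface markers. Each progenitor library pooled cells sorted from many mice over months. The 14 Pass lists of G1E-ER4+E2 came from a line derived from embryonic stem cells without GATA1, which carries a GATA1 fusion that estradiol switches on and was treated for 24 hours. The labels give no strain for this line, so whether it differs in strain is unknown. Primary cells and the line differ at once in culture, lineage, fixation time, the input used for peak calling and, for many lists of the line, starting cell number. These cannot be told apart in the comparison of the 2 groups.

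CTCF is a zinc finger protein that sits at insulators and at the anchors of chromatin loops, where it halts the cohesin complex, mostly when its motif points into the loop. Antigen receptor genes are assembled in lymphocytes by V(D)J recombination, in which RAG joins 1 of many V segments to D and J segments that can lie far away. CTCF sites beside V segments and between the V and the D or J segments are known to shape the loops that bring V segments close and to keep some of them from being used too early.

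The following sequences are shown because they carry the sites that most of the results turn on: the cluster past the Igh constant genes, a pair of sites next to the Igh D segment Ighd1-1, the Tcra sites 5′ and 3′ of the J and constant segments, the pair between the Igk V and J segments, the strongest Tcrb site and members of the V segment groups. Each is the best match to the CTCF motif in its site with 5 bases on either side, read 5′ to 3′ from the RefSeq sequence of GRCm38 on the strand given. The 19 bases of the match are in capitals. The motif was learned from the 2000 strongest peaks of an LSK library outside the 4 loci, and its most frequent bases spell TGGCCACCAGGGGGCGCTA.
Igh-2, chr12:113218078-113218106, plus strand: tctacTGACCACACGGTGGCAGCAgagcg
Igh-3, chr12:113221400-113221428, plus strand: gcatcTGTCCACCAGGGGGCACCTgagca
Igh-7, chr12:113485261-113485289, minus strand: cttccTCTCCACAAGAGGGCAGAAttcgg
Igh-8, chr12:113487880-113487908, plus strand: gctcaTAGCCACAAGGGGGAAGCAgagac
Igh-19 past Ighv11-1, chr12:113981798-113981826, minus strand: actctGAACCACCAGGGGGAGCCCagtcc
Igh-20 past Ighv11-2, chr12:114048160-114048188, minus strand: actctGAACCACTAGGGGGTGCACagtcc
Igk-47, chr6:70709868-70709896, minus strand: aagctGTGTCAGCAGATGGCAGTGctgta
Igk-48, chr6:70713304-70713332, plus strand: gttaaTGGCCACTTGAGGGAGCTAaagat
Tcrb-9 at Trbv12-1, chr6:41113045-41113073, plus strand: acagcTGATCACTAGGTGGCGCTGtggac
Tcra-41 at Trav6n-6, chr14:53132561-53132589, plus strand: gctccTGTCCACCAGGGGGCGCAGatgcc
Tcra-56 near Trav4n-4, chr14:53301311-53301339, plus strand: gtttcAGTCCACTAGGGGGCACTGcaggg
Tcra-104, chr14:54153025-54153053, minus strand: tagttAGAGCAGCAGGGGGCGCTGtgagg
Tcra-105, chr14:54228294-54228322, plus strand: gccttCAGGCAGCAGGGGGCACTGcctac

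A match at p = 0.0001 per position on either strand was found in 92.5% of the Igh sites, 50% of the Igk sites, 90% of the Tcrb sites and 95.3% of the Tcra sites, and in 81.9% of all sites of the genome. In windows of the same length 10 kb away the shares were 25.4% for Igh, 14.6% for Igk, 30% for Tcrb, 34% for Tcra and 39.3% for the genome. These shares are a description, and the differences between them were not tested.

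Lists were of unequal length, with 6629 to 36481 peaks in primary cells and 10655 to 21986 in G1E-ER4+E2, and mean chromatin lengths were 218 to 283 bp in primary cells and 199 to 302 bp in the line. The read depth behind each list is unknown here. Shares of peaks were tested over libraries by exact permutation, two-sided, and nothing in the labels says that libraries of a group came from separate cultures or animals, so the p-values measure the spread between these libraries. At Igk 2 cell line lists stood apart, replicates 12 and 13, with 14.3 and 11.5 of 10000 peaks, against 1.88 to 4.09 in the 12 other lists of the line, and results at Igk are therefore given with and without them. Some lists of the line came from a pilot on small numbers of cells, which the labels do not mark. Among the Pass lists of the line the chromatin length of 302 bp is that of replicate 12 alone, and 248 bp is that of replicates 3 and 13. These are the lengths of the pilot's successful libraries. By length alone replicate 12 may be placed in it, but replicates 3 and 13 cannot be told apart. In library number replicates 12 and 13 stand on either side of the Fail list of 329 bp, another length of the pilot. Replicate 3 is numbered far from them. Length and library number together thus place replicates 12 and 13, and not 3, in the pilot, though the labels do not state it. The part of cell number in the Igk values was not tested.

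Tcra held the densest row of CTCF sites when all sites were counted. It had 55.8 sites per Mb, against 26.7 at Tcrb, 23.1 at Igh, 14.8 at Igk and 18.2 over the genome. Of 2716 tiles of 1 Mb that cover the genome, 80 had at least as many sites as 1 Mb of Tcra, 638 as Tcrb, 776 as Igh and 1336 as Igk. The median tile held 14 sites, the 90th percentile was 40 and the fullest held 105. Counted only over sites called in 2 or more libraries, the densities were 44.7 at Tcra, 17.3 at Tcrb, 16.2 at Igh and 5.54 at Igk, against 11.6 over the genome. Many Tcra sites lay in repeated sequence, where at least 50% of sampled 31-base words occur more than once in the genome. This held for 74 of 106 sites at Tcra, 33 of 48 at Igk, 18 of 67 at Igh and 3 of 20 at Tcrb. In the genome it held for 9411 of 49473. Without these sites Tcra was not the densest of the 4 loci.

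Spacing followed the same order at its centre and differed in its tails. Midpoints of neighbouring sites were a median of 11.6 kb apart at Tcra (quartiles 6.76 and 19.3), 18.3 kb at Tcrb (8.14 and 38.8), 30.8 kb at Igh (16.7 and 51.3) and 45.5 kb at Igk (10.5 and 83.6). The genome's median was 21.6 kb with quartiles of 7.56 and 56.6 kb. Gaps under 5 kb made up 7.58% of the gaps at Igh, against 17.8% in the genome. Igk had 21.3%, Tcra 15.2% and Tcrb 10.5% of such short gaps.

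The longest gaps lay among the V segments at Igh and Igk, outside them at Tcra and mostly outside them at Tcrb. At Tcra it was 75.1 kb between Tcra-104 and Tcra-105, the stretch of the J segments, with no V segment inside. At Tcrb it was 243 kb between Tcrb-17 and Tcrb-18, with 3 V segments inside. It spans the trypsinogen genes that lie between the V and the D segments. At Igk it was 394 kb between Igk-19 and Igk-20, with 18 V segments inside and no CTCF site called in any of the 23 lists. At Igh it was 177 kb between Igh-52 and Igh-53, with 7 V segments.

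**Figure D1:**
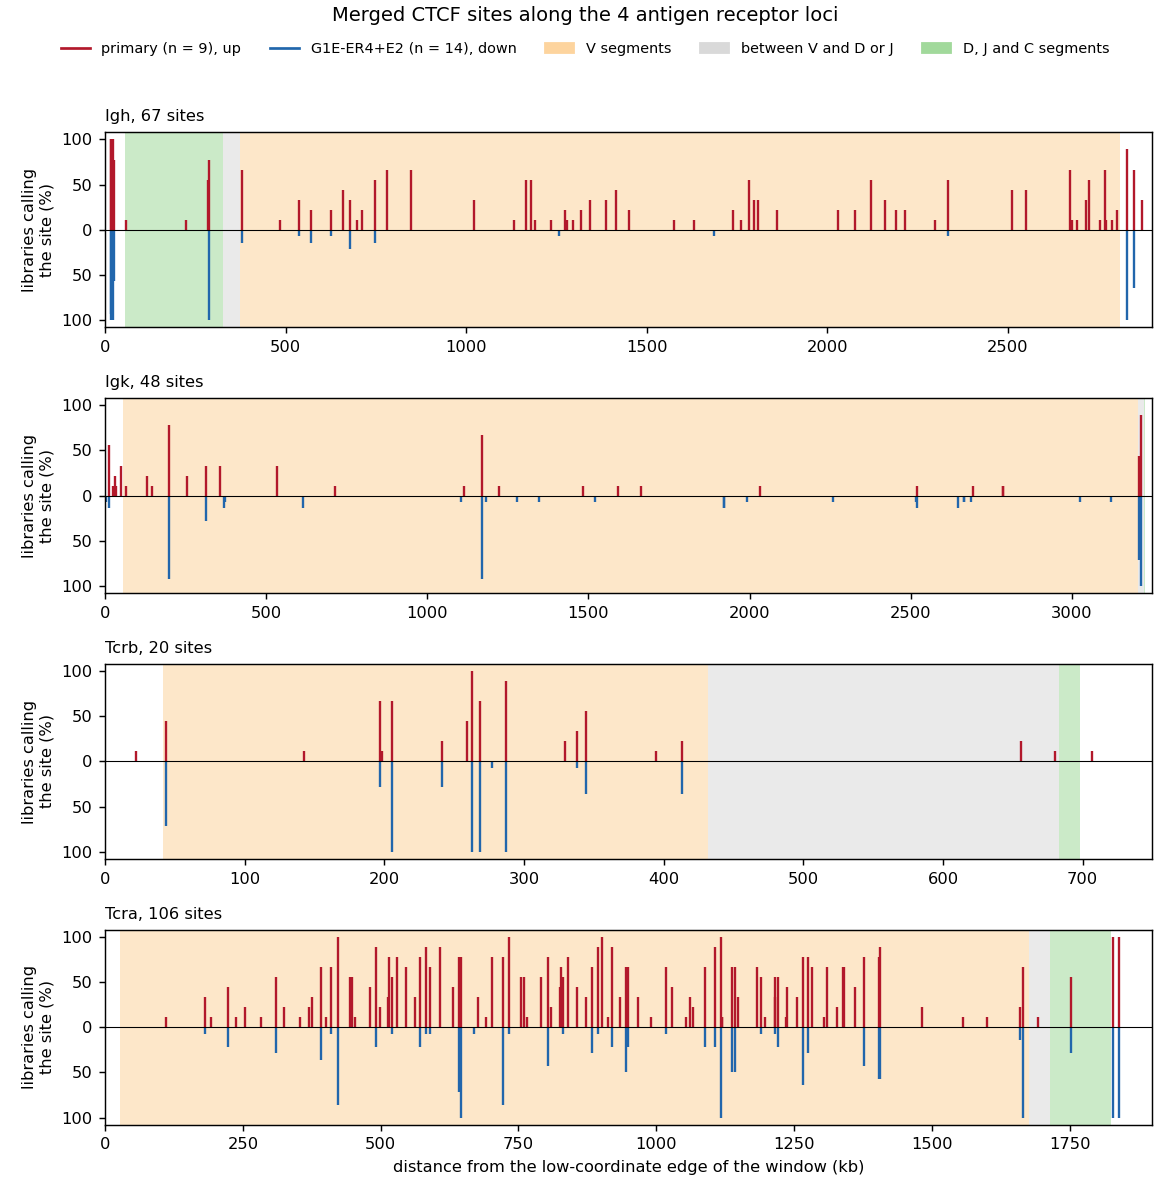
Merged CTCF sites along each locus, with the distance from the low-coordinate edge of the window in kb on the horizontal axis and the percent of libraries that called each site on the vertical axis, primary cells (n = 9) upward in red and G1E-ER4+E2 (n = 14) downward in blue. Shading marks the V segments, the stretch between V and D or J, and the D, J and C segments. Tall bars in both directions stand at the ends of Igh, at the high-coordinate end of Tcra and at some sites inside the Tcra V region. Most bars inside the Igh and Tcra V regions point upward only.

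At Igh and Tcra, though not at Igk or Tcrb, the stretch past the constant genes held CTCF sites that were called in every list. Past the last Igh constant gene 4 sites lay in 54.8 kb, a density of 73 per Mb, at the far end of the Igh 3′ regulatory region, which is known to drive heavy chain expression and switching. Igh-2 and Igh-3 were called in 9 of 9 primary and 14 of 14 G1E-ER4+E2 lists. Igh-1 was called in 9 and 13 lists, and Igh-4 in 7 and 8. The 4 sites stand in a row, and their best matches all read on the plus strand.

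Igh-3 (chr12:113219569-113223414) held 5 motif matches at p = 0.00001, all on the plus strand, and was the strongest site of the locus. Strength is given as the within-list percentile of −log10 p, where 100 is the strongest peak of a list. In primary cells Igh-3 had a lowest, median and highest percentile of 93.9, 99.9 and 100, and in the line of 71.6, 96.5 and 100. The groups overlapped, and in every list the site was above most other peaks of the genome. Igh-2 had 73.6, 98 and 99.6 in primary cells and 31, 96.3 and 99.6 in the line. Its median was near the top in both groups, with at least 1 list of the line well below it.

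Past the Tcra constant gene lay Tcra-105 and Tcra-106, each called in 9 of 9 primary and 14 of 14 cell line lists. Tcra-105 (chr14:54227577-54228775) lay 3371 bp past Trac, the alpha constant gene, on the side of the locus where the Tcra enhancer lies. Its percentile was 82.2, 95.6 and 98.5 in primary cells and 50, 74.6 and 96.9 in the line. Tcra-106 (chr14:54238763-54239727) lay inside Dad1, a housekeeping gene of protein glycosylation that follows the locus. Its percentile was 66.2, 78.3 and 93.2 in primary cells and 49.2, 76.2 and 90.1 in the line. The percentiles of both groups overlapped at both sites.

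The stretch between V and the D or J segments was marked differently at each locus. At Igk the 18.4 kb between Igkv3-1 and the J segments, which is known for the Cer and Sis elements that act on V segment choice, held Igk-47 and Igk-48. Igk-48 (chr6:70712864-70714801) was called in 8 of 9 primary and 14 of 14 cell line lists, and Igk-47 (chr6:70709020-70710266) in 4 and 10. Their best matches point away from each other, Igk-47 on the minus and Igk-48 on the plus strand. No CTCF site was called over the Igk J and constant segments or in the 23 kb after them.

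At Igh the annotation places some D segments beyond the gene Adam6b, so that a pair of sites next to Ighd1-1 counts to the D segments. It was singled out after its values were seen, because the intergenic control region 1 of the heavy chain locus, which holds V segments back until D and J are joined, is known to lie upstream of that D segment. Igh-7 (chr12:113484862-113485711, 2670 bp from Ighd1-1) was called in 5 of 9 primary lists and in 0 of 14 lists of the line (two-sided Fisher's exact test, p = 0.00374, adjusted p = 0.0781 over the genome). Its neighbour Igh-8 (chr12:113487300-113488332) was called in 7 of 9 and 14 of 14 lists. The matches of the pair read in opposite directions, Igh-7 minus and Igh-8 plus.

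At Tcrb both sites between V and D were called rarely and in no list of the line. Tcrb-18 was called in both LSK lists and nowhere else, and Tcrb-19, which lies 2622 bp from Trbd1, in 1 primary list. Past the constant genes Tcrb-20, 867 bp from the inverted segment Trbv31, was also called in 1 primary list. The strong Tcrb sites stood among the V segments instead: Tcrb-9 at Trbv12-1 was called in all 23 lists, with a percentile of 41.9, 90.1 and 99.1 in primary cells and 83.6, 95.9 and 98.9 in the line. Tcrb-12 was called in 8 and 14 lists, and Tcrb-6 and Tcrb-10 each in 6 and 14.

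At Tcra the site nearest the J segments was Tcra-104, 1411 bp from Traj61 and so in the part of the locus where the TEA promoter opens the J segments. It was called in 5 of 9 primary and 4 of 14 cell line lists (two-sided Fisher's exact test, p = 0.383), and its match reads on the minus strand, against the plus strand of Tcra-105. Between the V and the delta D segments only Tcra-103 was called, in the CFUMk list.

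Sites close to V segments lay on different sides of them at different loci. At Tcra 61 sites had their best match within 1 kb of a V segment, and all 61 lay upstream of it, at a median of 150 bp (quartiles 86 and 231, range 39 to 747). At Igh 23 sites lay within 1 kb of a V segment, and 21 of these lay past its 3′ end, where the recombination signal sequence is, with a median of 67 bp. At Tcrb 7 lay upstream, at a median of 491 bp, and 1 lay 65 bp past the 3′ end. Igk had 1 such site. The distances are from the annotated segment to the middle base of the match.

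**Figure D2:**
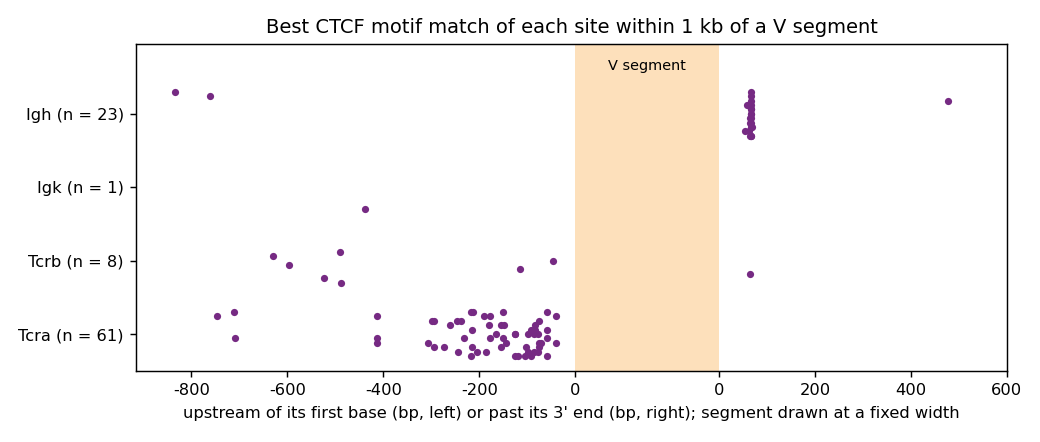
Position of the best CTCF motif match relative to the nearest V segment, in bp, for sites within 1 kb, with the upstream side on the left, the segment itself at a fixed width and the 3′ side on the right, 1 row for each locus and 1 point for each site. The 61 Tcra matches all lie upstream, and 21 of the 23 Igh matches lie past the 3′ end.

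The families of the Igh V region differed in this. In the families other than Ighv1, 20 of 22 matches lay 50 to 70 bp past the 3′ end of the nearest V segment. In Ighv1, the large distal family, 26 of 29 matches lay upstream of the nearest segment, at a median of 3.34 kb, and 18 of them 2 to 4 kb away. The part of the V region nearest to D, up to the first Ighv1 segment, held 14 sites in 779 kb, all 14 with a match within 1 kb of a V segment, and 6 of them were called in the line. The Ighv1 part held 42 sites in 1658 kb, 9 with such a match, and 3 of them were called in the line.

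Orientation followed the V segments at Igh and Tcrb, mostly so at Tcra and less so at Igk. Of the Igh V region matches 51 of 52 read on the minus strand, as 183 of the 185 annotated V segments do, while the 4 sites past the constant genes read on the plus strand. At Tcrb all 15 matches in the V region read on the plus strand, and the 3 matches between V and D and past the constant genes on the minus strand. At Tcra 86 matches in the V region read on the plus and 11 on the minus strand. The 2 matches past the Tcra constant gene also read on the plus strand, the same as most matches of that V region. At Igk, where 75 V segments lie on the plus and 85 on the minus strand, 10 matches read on the plus and 6 on the minus strand. Of these 16, 10 read as the nearest V segment does and 6 against it. Over the genome 20129 matches read on the plus and 20401 on the minus strand. Matches in the V regions of Igh and Tcrb thus read, with 1 exception, toward the D, J and C segments of their locus, and those past the constant genes read the other way.

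A CTCF site lay within 1 kb of 67 of 134 V segments at Tcra (50%), 9 of 35 at Tcrb (25.7%), 25 of 185 at Igh (13.5%) and 1 of 160 at Igk. Among annotated V genes and pseudogenes the shares were 51.3% and 42.9% at Tcra, 31.8% and 15.4% at Tcrb and 17.4% and 7.14% at Igh. At Tcra the family Trav9 had a match at 11 of 11 segments, Trav12 at 9 of 10 and Trav6 at 11 of 15. Members of a family share sequence, so their sites are not independent of each other.

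Peaks at Tcra and Igh took a larger part of the lists in primary cells than in G1E-ER4+E2. At Tcra the lowest, median and highest share was 17.5, 26 and 40.1 of 10000 peaks in primary cells, against 7.74, 9.8 and 16.8 in the line, and the groups did not overlap. The means were 27.1 ± 7.96 (SD, n = 9) in primary cells and 10.7 ± 2.46 (SD, n = 14) in the line, a ratio of 2.53 (exact permutation test, p = 1.22e-06, the smallest the design allows; adjusted p = 1.84e-05 over 15 tests). At Igh the share was 6.67, 12.1 and 19.4 in primary cells, against 4.22, 6.24 and 7.64 in the line. Here only the lowest primary value, that of CFUE, fell within the range of the line. The means were 12.6 ± 3.83 (SD, n = 9) and 6.11 ± 0.954 (SD, n = 14), a ratio of 2.07 (exact permutation test, adjusted p = 3.06e-05). Taking only the 6629 strongest peaks of each list ended the Igh difference, with 8.72 in primary cells and 7.22 in the line (exact permutation test, adjusted p = 0.345), and widened that at Tcra to 27 against 5.5.

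**Figure D3:**
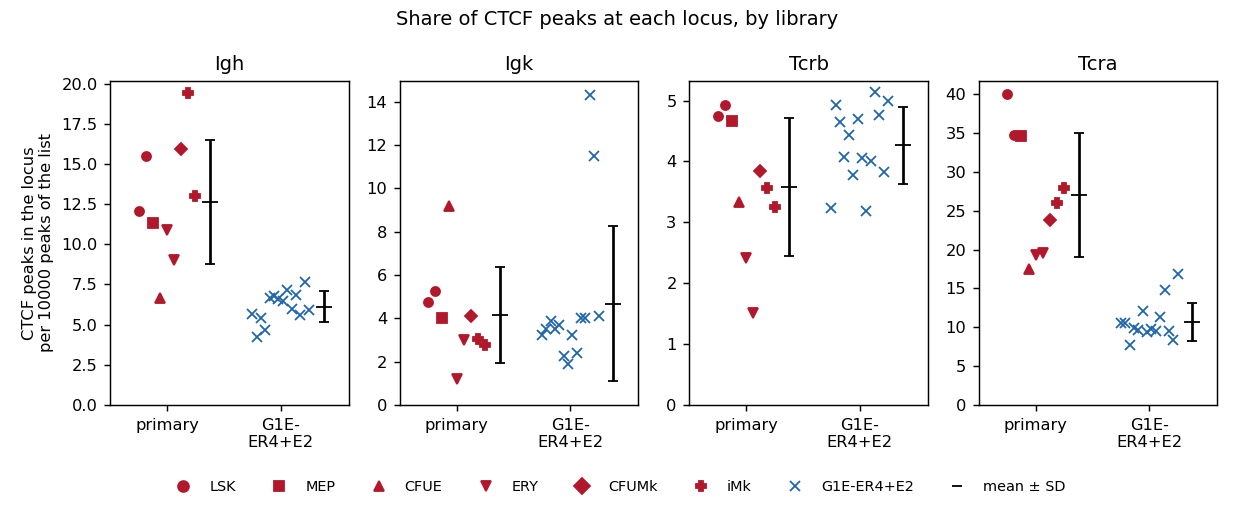
CTCF peaks in each locus per 10000 peaks of the list, 1 panel for each locus and 1 symbol for each library, shaped by cell type, with primary cells (n = 9) on the left, G1E-ER4+E2 (n = 14) on the right and bars for the mean ± SD. At Tcra the primary lists (17.5 to 40.1) lie above all lists of the line (7.74 to 16.8), and at Igk the 2 highest lists of the line stand at 14.3 and 11.5.

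Neither Tcrb nor Igk showed a difference of this kind. Tcrb had a mean share of 3.58 ± 1.13 (SD, n = 9) in primary cells and 4.27 ± 0.631 (SD, n = 14) in the line (exact permutation test, adjusted p = 0.15). Igk had 4.15 ± 2.23 (SD, n = 9) and 4.67 ± 3.59 (SD, n = 14), with adjusted p = 0.751 in the exact permutation test. The Igk difference of -0.521 rested on replicates 12 and 13 of the line: without both, an alternative added after seeing the data, the line had 3.31 ± 0.745 (SD, n = 12) and the difference was 0.848 (exact permutation test, adjusted p = 0.312). The 2 lists did not set the result at Tcra, where the difference was 16.1 without them and 16.4 with them, or at Igh, where it was 6.62 and 6.53.

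The regions on either side of the loci did not show the Tcra and Igh pattern. In windows of the same length directly beside Igh, primary cells and the line both had 43.8 of 10000 peaks (exact permutation test, p = 0.978). Beside Tcra the share was lower in primary cells, 50.5 ± 6.02 (SD, n = 9) against 58.7 ± 3.26 (SD, n = 14) in the line (exact permutation test, adjusted p = 0.000609 over 4 loci). It was also lower in primary cells beside Igk, 31.2 against 41.1 (exact permutation test, adjusted p = 4.89e-06), and beside Tcrb, 6.02 against 7.37 (exact permutation test, adjusted p = 0.0119). These flanking windows were chosen after the values at the loci were seen.

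How the authors placed reads that match several places is not given in the sources used here, and the part of repeated sequence in these values was measured only by leaving such intervals out. An interval was taken as repeated where at least 50% of its sampled 31-base words occur more than once in the genome, and this held for 69.8% of the Tcra sites, 68.8% at Igk, 26.9% at Igh and 15% at Tcrb, against 19% in the genome. Over intervals that are not repeated, Tcra had 8.72 ± 1.67 (SD, n = 9) of 10000 peaks in primary cells and 5.92 ± 0.962 (SD, n = 14) in the line (exact permutation test, adjusted p = 0.000263). The ratio of 1.47 was smaller than the 2.53 over all intervals, and the direction was the same. Igh had 10.9 ± 2.13 (SD, n = 9) and 6.28 ± 1.07 (SD, n = 14), a ratio of 1.73 (exact permutation test, adjusted p = 3.67e-05).

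Site by site, calls at Tcra and Igh leaned to primary cells, and those at Igk and Tcrb did not. Fisher's exact test on libraries with and without a call, adjusted over all 49473 intervals, called 2.59% of all intervals more often in primary cells and 0.325% more often in the line. At the 4 loci 20 of 241 sites (8.3%) were called more often in primary cells: 16 of 106 at Tcra (15.1%), 4 of 67 at Igh (5.97%) and none at Igk or Tcrb. None of the 241 was called more often in the line. At an unadjusted p under 0.05 in Fisher's exact test the numbers were 79 (32.8%) for primary cells and 3 (1.24%) for the line, against 11.9% and 3.59% of all intervals. By locus the share for primary cells was 48.1% at Tcra, 35.8% at Igh, 6.25% at Igk and 5% at Tcrb. For the line it was 10% at Tcrb, 0.943% at Tcra and 0% at Igh and Igk. Of the 20 sites 6 lay in intervals that are not repeated. The number depended on single libraries. Leaving out any 1 of the 9 primary lists moved the 20 to between 9 and 35, while leaving out 1 list of the line moved it by less than 1.5 times. Without both replicates 12 and 13 of the line it was 9, all at Tcra, because the 11 sites called in 6 primary lists and in none of the line then had an adjusted p of 0.0525.

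The sites with the largest contrast stood at Trav segments. Tcra-56, 293 bp from Trav4n-4, was called in 9 of 9 primary and 0 of 14 cell line lists (Fisher's exact test, adjusted p = 0.000599). Tcra-41 at Trav6n-6 was called in 9 and 1 and Tcra-32 at Trav6d-7 in 8 and 0 (Fisher's exact test, adjusted p = 0.00356 for both). Tcra-30 at Trav9d-4 and Tcra-55 at Trav9n-4 were called in 8 and 1 lists. Tcra-24, Tcra-26 and Tcra-51 at Trav12 segments and Tcra-39 at Trav9n-1 were called in 7 and 0. The other 7 Tcra sites had calls in 6 of 9 primary lists and in no list of the line, with adjusted p = 0.0302 in Fisher's exact test. Each of these 7 calls is lost without any 1 of the 6 lists that hold it, and without both replicates 12 and 13 of the line.

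At Igh the 4 sites were Igh-19, Igh-20, Igh-55 and Igh-61, each called in 6 of 9 primary and 0 of 14 cell line lists (Fisher's exact test, adjusted p = 0.0302). Igh-19 and Igh-20 lie past Ighv11-1 and Ighv11-2, the 2 members of their family, which is known for the antibodies of B-1 cells. Igh-55 and Igh-61 have their matches 3435 bp upstream of Ighv1-78 and 3474 bp upstream of Ighv1-83, and their 29 printed bases are the same. All 4 were called in the 2 LSK, the MEP, the CFUMk and the 2 iMk lists and in none of the CFUE and ERY lists. Each of the 4 calls is lost without any 1 of the 6 lists that hold it, and without both replicates 12 and 13 of the line.

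Most sites of Igh and Tcra were seen in primary cells only. At Igh 51 of 67 sites (76.1%) and at Tcra 64 of 106 (60.4%) were called in no list of the line, against 46.8% in the genome, 45% at Tcrb and 43.8% at Igk. Conversely 2.99% at Igh, 0.943% at Tcra, 5% at Tcrb and 41.7% at Igk were called in no primary list, against 7.49% in the genome. The share called in all 23 lists was 2.99% at Igh, 0% at Igk, 5% at Tcrb and 2.83% at Tcra, against 5.27% in the genome. At the loci these were 6 sites: Igh-2, Igh-3, Tcrb-9, Tcra-71, Tcra-105 and Tcra-106. Of these, Tcra-71 at Trav6-6 had its percentile at 37.8, 88.3 and 98.9 in primary cells and 23.2, 44 and 68.2 in the line.

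Within the primary cells the LSK lists had the highest Tcra shares. The 2 LSK lists had 40.1 and 34.8 of 10000 peaks at Tcra, the MEP list 34.7, the iMk lists 26 and 27.9, the CFUMk list 23.8, the ERY lists 19.3 and 19.6 and the CFUE list 17.5. The 95% Wilson interval, which covers counting error only, was 26.4 to 45.4 for MEP and 11.5 to 26.8 for CFUE. MEP thus could not be set apart from LSK. The mean was 37.4 ± 3.78 (SD, n = 2) in LSK and 24.1 ± 6 (SD, n = 7) in the other primary lists (exact permutation test, p = 0.0278, the smallest the design allows, adjusted p = 0.104). The difference did not pass the threshold after adjustment. Among the 6629 strongest peaks of each list it was wider, 51.3 and 54.3 in LSK, against 13.6 to 28.7 in the other primary lists (exact permutation test, adjusted p = 0.0833). Over intervals that are not repeated LSK had 10.8 and 10.9, against 5.96 to 10.2.

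Erythroid lists lay below megakaryocytic lists at Igh and Tcra. At Igh CFUE and ERY had 6.67, 10.9 and 9.05 of 10000 peaks, against 15.9, 19.4 and 13 in CFUMk and iMk, and the groups did not overlap. At Tcra they had 17.5, 19.3 and 19.6, against 23.8, 26 and 27.9, again with no overlap. With 3 lists against 3 the exact permutation test cannot go below p = 0.1, which both differences reached, so neither could pass the threshold. The erythroid lists were also the shortest, at 6629 to 11990 peaks, against 19612 to 36481. Over the 6629 strongest peaks of each list both differences turned to the other sign, with 1.51 at Igh and 1.01 at Tcra, and the part of list length in them was not tested.

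Counted as sites, the CFUMk list and the LSK lists covered most of the Igh sites, with 57 and 46 of 67, followed by iMk with 40, MEP with 15, CFUE with 6 and ERY with 5. At Tcra LSK had 100 of 106 sites, CFUMk 87, iMk 61, MEP 52, ERY 22 and CFUE 21. At Tcrb LSK had 15 of 20 sites and CFUMk 14. Set against the whole genome, the second LSK list called 70.5% of the 241 sites and 56.5% of all intervals, while CFUMk called 71.4% and 73.3%. Lists of the line called 9.54% to 29% of the 241 sites and 21.2% to 43.9% of all intervals. The CFUE list called 17% and 23.9%, and the ERY lists 9.96% and 8.3% of the 241 sites and 16.5% and 13.2% of all intervals. The share of the 241 sites was thus below that of all intervals in the CFUE, ERY and CFUMk lists as in every list of the line. It was also below in the second iMk list, with 41.1% and 42.6%. In both LSK lists, the MEP list (32.8% and 29.8%) and the first iMk list (41.1% and 39%) it was above.

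**Figure D4:**
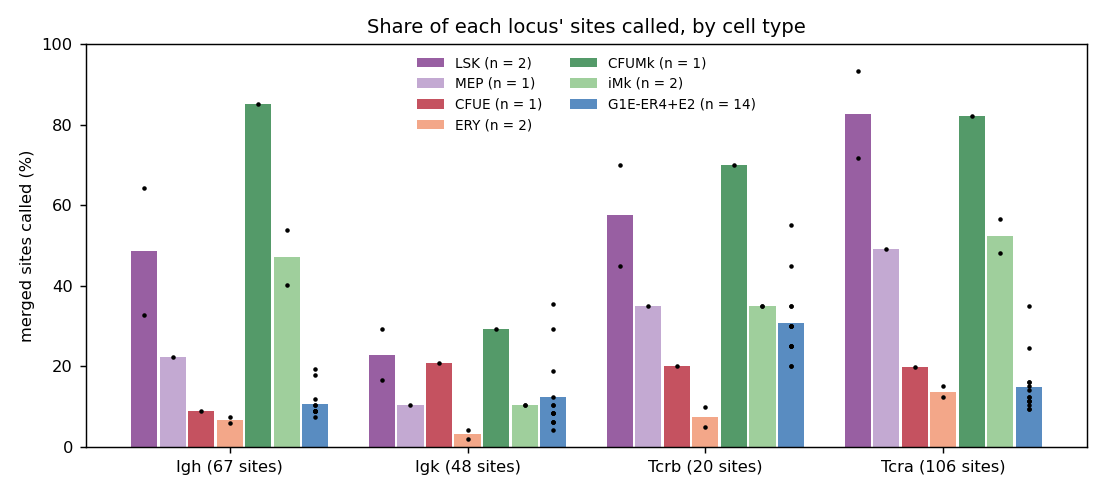
Percent of each locus' sites called in each cell type, with bars for the mean over libraries of a cell type, points for single libraries and the number of libraries in the legend. The CFUMk and LSK bars are the 2 highest at each of the 4 loci, and the bars of the line lie far below them at Igh and Tcra.

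The Tcra V region holds stretches that were copied in C57BL/6 mice, whose segments carry d or n in their names. The d copy had 30 sites in 399 kb (75.3 per Mb) and the n copy 24 in 284 kb (84.5 per Mb), against 47.6 per Mb after the n copy and 24.7 before the d copy. Repeated sequence made up 93.3% of the d copy sites and 95.8% of the n copy sites, and 43.2% of the sites after the n copy. A site of the d copy was called on average in 52.2% of primary lists and 13.3% of cell line lists, and a site of the n copy in 58.8% and 11.3%. After the n copy the means were 48.7% and 20%.

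Copies with the same bases were not always called alike in the line. Of the 101 Tcra sites with a match, 71 shared all 29 printed bases with at least 1 other Tcra site, in 28 groups. Within a group, primary calls differed by at most 3 libraries, and calls in the line by up to 13. The widest case was Tcra-16, Tcra-41 and Tcra-71 at Trav6d-6, Trav6n-6 and Trav6-6, which share the bases shown above for Tcra-41. Each was called in 9 of 9 primary lists, while the line called them in 12, 1 and 14 of 14 lists. Another group is Tcra-34, Tcra-60 and Tcra-92, with 7, 6 and 6 primary lists and 10, 7 and 0 lists of the line. In 14 of the 28 groups no copy was called in any list of the line, in 1 further group every copy was called in the same number of lists, and in 7 the copies differed by 4 or more. Copies differ in the bases around the printed stretch, and whether sequence, strain or read placement sets these differences was not tested.

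At Igk most sites were called in a single list. Of the 48 sites 30 (62.5%) were called in a single list, against 36% in the genome, 29.9% at Igh, 35% at Tcrb and 19.8% at Tcra. The 18 sites called in 2 or more lists had a match in 77.8%, and the 30 single-list sites in 33.3%. Only Igk-11, Igk-22, Igk-47 and Igk-48 were called in at least 12 of the 23 lists, 4 of 48 sites, against 13640 of 49473 in the genome. Igk-11 was called in 7 primary and 13 cell line lists and Igk-22 in 6 and 13.

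Many of the other Igk sites came from few lists. Replicates 12 and 13 of the line alone supplied 17 Igk sites, of which all 17 lay in repeated sequence, 1 had a motif match and 16 were also present in at least 1 CTCF list assessed as Fail. Over the genome 2398 intervals were called only in these 2 lists, 21.2% with a match and 72.3% present in a Fail list. The CFUE list supplied 7 further Igk sites. Without sites called in a single list, 6 of the remaining 18 Igk sites were in primary cells only, 5 in the line only and 7 in both.

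**Figure D5:**
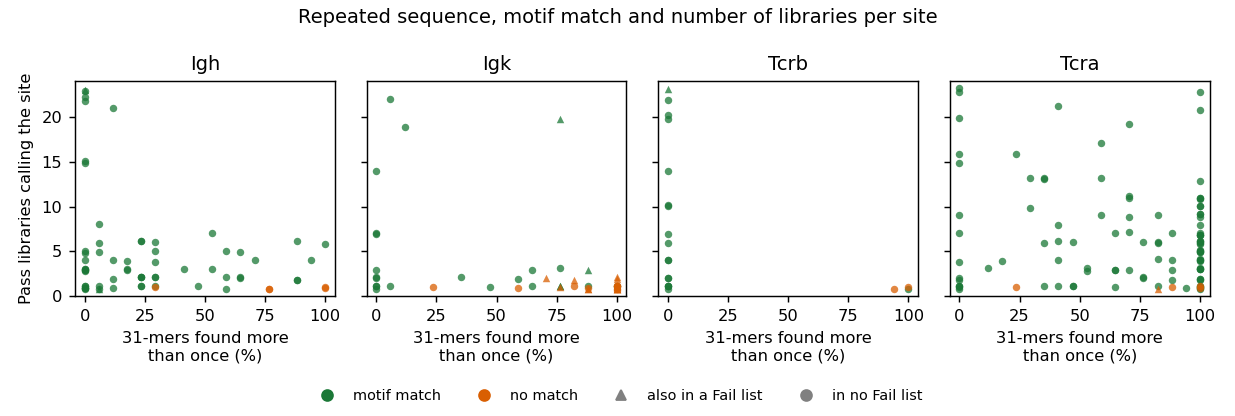
For each site, the percent of its sampled 31-base words found more than once in the genome on the horizontal axis and the number of Pass libraries that called it on the vertical axis, 1 panel for each locus, with green for a motif match, orange for none and triangles for sites also present in a Fail list. At Igk many points stand at high percentages and at 1 library, without a match, while Tcra has many repeated sites with a match and several libraries.

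TAL1, a factor of early blood and red cell genes, was mapped in the line only. The 10 Pass TAL1 lists held 12 merged peaks at the 4 loci, 3 of which (25%) overlapped a CTCF site: Igk-47, Tcrb-10 and Tcra-104. Over the genome 1125 of 11582 merged TAL1 peaks (9.71%) overlapped a merged CTCF interval. The peak on Igk-47 was called in 8 of 10 lists, and those on Tcrb-10 and Tcra-104 in 1 each. The TAL1 peak called in all 10 lists lay past the kappa constant gene, in Gm30211 (chr6:70730431-70731504), where no CTCF site was called. For 1 of the 10 libraries the antibody label names CTCF, and without it the numbers of merged peaks and of overlaps at the loci were the same.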

How the data were processed

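CTCF peak lists were made by the authors for each library: reads were mapped to mm10, reads of the mitochondrial genome and unplaced sequences were removed, and MACS called the peaks, for the line mostly against a composite input. Bowtie 1.0.0 and bcl2fastq 1.8.4 are in the submitters' processing notes, while an older Bowtie is given in the study's methods. For each peak the deposited lists hold the fold enrichment over background, a ratio, and a −log10 p of at least 5. Both were used only within a list, since they depend on depth, which the lists do not give. The deposited FDR column was not used.

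Peaks of the 23 Pass lists were merged, and shares are peaks in a locus per 10000 peaks of a list. Shares were tested by exact permutation over libraries, two-sided, with Benjamini-Hochberg adjustment over 15 tests, and calls per interval by Fisher's exact test adjusted over 49473 intervals, with a threshold of 0.05. The tests were tested on simulated data. Libraries of MEP, CFUE and CFUMk have no replicate. Genes and V, D, J and C segments are those of the GENCODE basic annotation of GRCm38, and sequence is from RefSeq. A matrix of 19 bp was learned from the middle 200 bp of 2000 peaks and scanned on both strands. Repeated sequence was measured by 31-base words taken every 10 bp. Python 3.11.15, numpy 2.4.6, scipy 1.17.1 and pandas 2.3.3 were used.

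Sites were named if called in all 23 lists, if among the 3 of a locus with the highest median percentile in at least 12 lists, if called in the test per site, or if they lay first, last, between V and D or J, past the constant genes or beside the longest gap. Igh-7, Igh-8, Tcra-104 and groups of equal sequence were chosen after their values were seen. The loci and lists were chosen with earlier results of these data known. Alternatives were the strongest 6629 peaks, −log10 p of at least 10, other merging, other groups and leaving out each list. Low pass and Fail CTCF lists entered only where named.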

Additional observations from a re-analysis of the deposited data

Results flagged for a closer look

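In 5 of the 7 CTCF lists assessed as Fail, which no comparison uses, peaks at Igk took a larger part than in any Pass list. Replicate 4 of the Fail lists of G1E-ER4+E2 had 82.5 of its 10000 peaks at Igk, with 25 of 3030 peaks there, against 14.3 at most in the 23 Pass lists. The 6 other Fail lists had 18, 36.9, 40.6, 0, 0 and 28.2 of 10000, so the level varied widely between them. In replicate 4 the peaks touched 12 of the 48 Igk sites. What sets the level was not tested. A search for single libraries far from the rest of their group was run in 15 groups of shares, and none met it. It looks for lists that stand apart alone. It thus did not flag replicates 12 and 13 of the line, which stood apart together at Igk.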

How the results depend on the processing

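The differences at Tcra and over the 4 loci between primary cells and G1E-ER4+E2 kept their sign and stayed past the threshold under every alternative tried. The others were less firm, and the cause was not tested. With the strongest 6629 peaks of each list, the primary minus G1E-ER4+E2 difference at Igh was 1.5 and no longer passed; LSK minus other primary was -1.51 at Igh, -0.108 at Igk and -1.19 at Tcrb; erythroid minus megakaryocytic was 1.51 at Igh, 1.01 at Tcra and 3.52 over all 4 loci. Erythroid minus megakaryocytic at Igk was 1.15 as reported and -1.95 at −log10 p of at least 10, -0.023 over intervals that are not repeated, -1.15 over intervals called in 2 or more lists and -3.67 as a number of sites. As numbers of sites, primary minus G1E-ER4+E2 was 1.18 at Igk and 1.08 at Tcrb; at Igk it was 0.356 with the CMP and GMP lists and 0.848 without both replicates 12 and 13. Site numbers were 17 at Igk and 12 at Tcrb at −log10 p of at least 10, 18 and 13 in 2 or more lists, and 13 at Igh, 15 at Igk, 6 at Tcrb and 50 at Tcra with the strongest peaks. Sites called more often in primary cells numbered 8 at the loci, 8 at Tcra and 0 at Igh with the strongest peaks (535 in the genome higher in the line), 5, 5 and 0 at −log10 p of at least 10 (genome 734, and 45 higher in the line), 6, 4 and 2 over intervals that are not repeated, and 9, 9 and 0 without both replicates 12 and 13 (genome 487). Motif shares in the middle 200 bp were 76.1% at Igh, 33.3% at Igk, 86.8% at Tcra and 68.6% in the genome, at p = 0.00001 they were 31.2% at Igk and 67.2% in the genome, and with a matrix from the line 81.5% in the genome. Leaving out each list in turn gave -1.15 to 0.22 for primary minus G1E-ER4+E2 at Igk (reversed without replicate 12 or 13), -0.177 to 3.13 for LSK minus other primary at Igh (reversed without LSK replicate 2) and -1.21 to 2.77 for erythroid minus megakaryocytic at Igk (reversed without CFUE). Sites called more often in primary cells then ranged from 489 to 2335 in the genome, 9 to 35 at the loci, 9 to 25 at Tcra and 0 to 10 at Igh, and those called more often in the line from 78 to 179 in the genome. The intervals without repeats, those in 2 or more lists for the shares, the flanking windows and the loss of both replicates were chosen after seeing the data. No paired analysis was possible because the replicate numbers only name libraries of unequal cell types and pair none of them.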

Other observations

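The CTCF lists of CMP and GMP, the common myeloid and the granulocyte and monocyte progenitors, were assessed as Low pass and enter none of the comparisons above. The CMP list touched 106 of the 241 sites (44%) and the GMP list 135 (56%), with 74 and 76 of the 106 Tcra sites and 19 and 35 of the 67 Igh sites. Their shares at Tcra were 30.8 and 24.7 of 10000 peaks, which lie between the CFUE list at 17.5 and the first LSK list at 40.1. Their shares at Igk, 8.36 and 9.59, were above those of all primary Pass lists (1.21 to 5.27) other than CFUE, which had 9.17. The 2 Low pass lists of G1E-ER4+E2 touched 16 and 15 of the 241 sites.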
